A study of Mus musculus with 52 samples.

Results

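The VEGF and angiopoietin signals of mouse pancreatic tumors are described here by 10 of the 27525 genes in the normalized table: the ligands Vegfa, Vegfb and Pgf, the receptors Flt1 and Kdr, the ligands Angpt1 and Angpt2 with their receptor Tek, and the angiogenesis genes Apln and Esm1. They were chosen by gene symbol, with earlier results of these data known, and all 10 passed the filter on low values in every comparison. Bulk poly(A) RNA-seq was performed on subcutaneous KPC tumors, which grew from pancreatic tumor cells of a Pdx1-Cre mouse model, injected into the flanks of syngeneic male C57BL/6NHsd mice 8 to 10 weeks old. All hosts of the 4 groups thus carried the same cells, whose Cre is driven by the pancreatic Pdx1 promoter, and a tumor held host vessels, stroma and leukocytes beside the injected cells. Treatment began at a tumor volume of about 100 mm3, about 10 days after injection. The untreated group received neither agent. The ADU-S100 group received 2 µg of this STING agonist, a cyclic dinucleotide, once into the tumor on day 0. The anti-LTβR group received 100 µg of the agonistic antibody 4H8 against the lymphotoxin-β receptor by intraperitoneal injection 4 times, the last on day 10. The combination group received both, and every tumor was collected on day 14. Each group held 8 tumors, and each tumor was 1 library.

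VEGF-A is made by hypoxic and tumor cells and drives endothelial sprouting mainly through VEGFR2, the product of Kdr, whereas VEGFR1, the product of Flt1, binds VEGF-A, VEGF-B and PlGF with high affinity and, also as a soluble form, acts largely as a trap. Angiopoietin-1 from mural cells keeps vessels quiescent through the endothelial receptor TIE2, the product of Tek, and angiopoietin-2, released by activated endothelial cells, opposes it depending on context. Apelin and endocan, the products of Apln and Esm1, are made by endothelial tip cells in growing vessels.

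The libraries held 12762453 to 15591986 reads recovered from the deposited values, with a median of 14932388.5, and 7 of the 32 held fewer than 14000000. Of the epithelial markers of the injected cells, Krt18 stood at 7356 ± 2194 normalized counts (SD, n = 8) in untreated tumors, whereas Krt7 was lower at 179 ± 80.5 and Epcam at 77.5 ± 53.3 (SD, n = 8 each). A normalized count is the number of reads assigned to a gene after division by 1 scaling factor per library. Groups were compared with limma on log2(normalized count + 1), so that fold changes of low genes are understated, and a gene is said to have changed where the Benjamini-Hochberg adjusted p over all genes tested fell below 0.05. In whole tumors, more or fewer cells of a type and more or less RNA per cell cannot be told apart.

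The receptor genes Kdr and Tek, whose levels moved together, and Flt1, whose level did not move with them, are shown first by the 250 bases upstream of their RefSeq transcription starts in GRCm38.p6, read 5′ to 3′ on the gene's strand. The Kdr sequence is at chr5:75978456-75978705 on the minus strand, Tek at chr4:94739039-94739288 on the plus strand and Flt1 at chr5:147726012-147726261 on the minus strand. Capitals mark the ETS-type motif AGGAAG, which was searched on both strands because ETS factors act on endothelial genes. The core of the hypoxia response element, spelled ACGTG, and a motif of the GATA type, spelled GATAAG, were searched in the same way.
Kdr: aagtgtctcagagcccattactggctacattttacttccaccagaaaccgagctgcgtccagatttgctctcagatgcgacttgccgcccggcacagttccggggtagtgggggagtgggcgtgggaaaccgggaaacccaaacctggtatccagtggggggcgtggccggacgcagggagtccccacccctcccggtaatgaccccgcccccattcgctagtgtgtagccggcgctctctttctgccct
Tek: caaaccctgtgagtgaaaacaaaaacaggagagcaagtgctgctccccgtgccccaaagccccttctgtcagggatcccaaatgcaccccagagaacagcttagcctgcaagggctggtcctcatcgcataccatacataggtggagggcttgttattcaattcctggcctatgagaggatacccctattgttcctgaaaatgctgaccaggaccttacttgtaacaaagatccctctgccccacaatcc
Flt1: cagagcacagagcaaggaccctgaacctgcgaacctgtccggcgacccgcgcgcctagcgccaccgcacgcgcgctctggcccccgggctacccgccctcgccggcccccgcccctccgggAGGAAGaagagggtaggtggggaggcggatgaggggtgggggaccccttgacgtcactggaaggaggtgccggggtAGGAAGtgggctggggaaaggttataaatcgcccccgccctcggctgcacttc
In its exact spelling the ETS-type motif occurred 2 times in the Flt1 window, without overlap, and none of the 3 spellings occurred in those of Kdr and Tek. Other forms of these motifs were not searched and may be present. The part of any motif in the levels of these genes was not tested. Over 32851 RefSeq windows of the same length, 29.5% held the ETS-type motif, 16.6% the hypoxia response core and 6.55% the GATA-type motif. The promoter table used here held 8 of the 10 genes, all but Angpt1 and Angpt2.

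Per kilobase of exon, levels of the 10 genes in untreated tumors spanned from Vegfa at 1746 normalized counts per kb to Esm1 at 9.38. Vegfa (GRCm38, chromosome 17, 46016993 to 46032369) was followed by Flt1 (chromosome 5, 147561604 to 147726011) at 508 per kb, Vegfb at 165, Apln at 75.9, Pgf at 54.8 and Angpt2 (chromosome 8, 18690263 to 18741562) at 32. Tek (chromosome 4, 94739289 to 94874976), Kdr (chromosome 5, 75932827 to 75978458) and Angpt1 were level at 17.8 per kb each. The ligand gene Vegfa thus stood 10.6 times above its relative Vegfb in length-corrected level. The 2 VEGF receptor genes stood 28.5 times apart per kb in untreated tumors and 11.7 times apart in combination tumors, with Flt1 the higher in both. Flt1 also stood above each of 14 blood endothelial marker genes, which spanned from 4.41 to 173 per kb in untreated tumors with Plvap, a protein of endothelial diaphragms, the highest. Kdr, at 17.8, lay below their median of 46.2 per kb. Gene positions and exon lengths are those of GENCODE vM21.

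**Figure D1:**
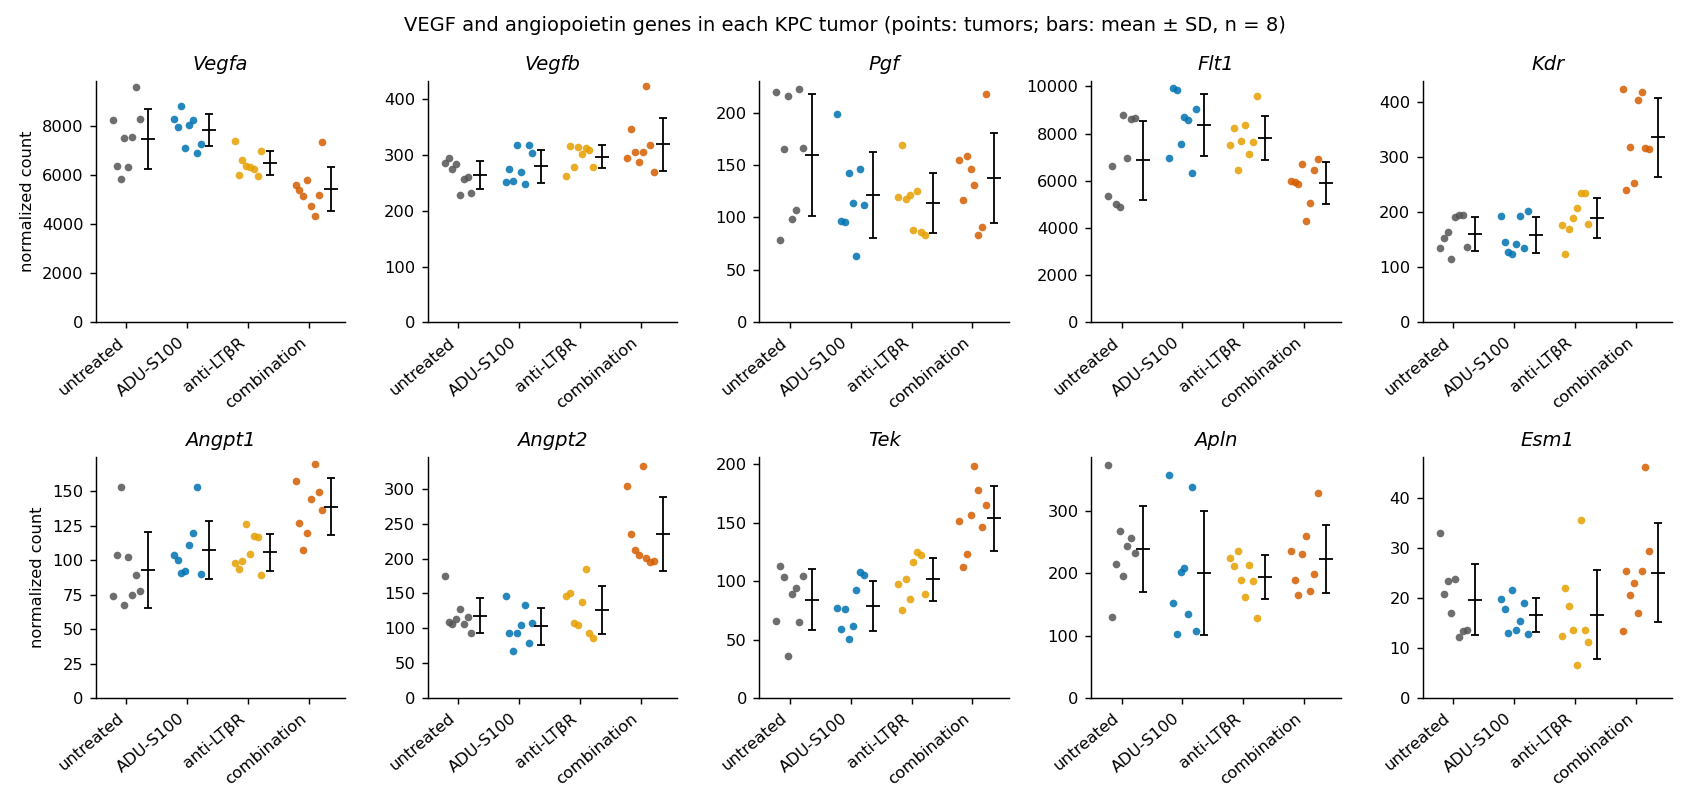
Normalized counts of the 10 genes (vertical axes, linear from 0) in each of the 32 KPC tumors by treatment group; points are tumors and bars give the mean ± SD of 8 tumors. The combination tumors stand above every untreated tumor for Kdr and Angpt2, while each of the other genes overlaps between these groups.

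The first comparison asked what both agents together did to these genes against no treatment. Of the 10 genes, 5 rose in combination tumors, namely Kdr, Angpt2, Tek, Angpt1 and Vegfb, and 1, Vegfa, fell. Among all 16909 genes tested, 19.6% rose and 23.6% fell. As the 10 genes were chosen with earlier results of these data known, these shares serve only as a description. The median log2 difference of the 10 genes was 0.29 and that of all genes tested was -0.02. Only Kdr also passed a 2-fold limit, which 5.16% of all genes passed upward. Kdr and Angpt2 both lay near that limit, since Kdr was short of it without the 7 shallower libraries (0.99 on the log2 scale) and Angpt2 passed it with edgeR and with libraries rescaled to 1 total (1.00 to 1.02). The receptor genes Kdr and Tek and both angiopoietin genes were thus higher, and the main VEGF ligand gene lower, while the receptor gene Flt1 did not pass.

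Vegfa, the main ligand of sprouting, lay between 5860 and 9590 normalized counts in untreated tumors, with a median of 7542. In combination tumors it lay between 4337 and 7363, with a median of 5285. In all, 7 of 8 combination tumors lay below the lowest untreated tumor, and the combination tumor with the highest level lay inside the untreated range. Vegfa fell by 0.46 on the log2 scale (SE 0.11, adjusted p = 0.0032, limma), a ratio of group means of 0.728. Vegfb, whose product binds VEGFR1, had an untreated range of 228 to 295 with a median of 267, and a combination range of 270 to 423 with a median of 306. Its level rose by a log2 difference of 0.26 (SE 0.09, adjusted p = 0.021, limma), and this call was lost when the 7 shallower libraries were left out (0.19, adjusted p = 0.076). Pgf, the gene of placental growth factor, spread widely in both groups, from 78.8 to 222 without treatment and from 83.1 to 218 with both agents. Its difference of -0.18 did not pass (95% interval -0.69 to 0.33, adjusted p = 0.58, limma).

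The 2 VEGF receptor genes took different courses. Kdr, which encodes the signaling receptor of endothelial cells, lay between 115 and 196 in untreated tumors, with a median of 159, and between 240 and 423 in combination tumors, with a median of 317. The groups did not overlap, as was true upward for 4.64% of all genes. The log2 difference was 1.05 (SE 0.14, adjusted p = 4.81e-05, limma), and the mean level was 2.09 times the untreated mean. Flt1, the decoy-type receptor gene, ranged from 4885 to 8768 with a median of 6805 in untreated tumors and from 4276 to 6929 with a median of 5968 in combination tumors. The ranges overlapped, with 1 combination tumor below all untreated ones and none above them, and the difference of -0.19 did not pass (95% interval -0.49 to 0.10, adjusted p = 0.28, limma). As a description, the ratio of Kdr to Flt1 normalized counts was 0.0241 ± 0.0049 (SD, n = 8) without treatment and 0.0594 ± 0.0210 (SD, n = 8) with both agents. The lowest combination value of this ratio, 0.0377, lay above the highest untreated one, 0.0328.

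All 3 genes of the angiopoietin axis rose. Angpt2, the ligand released by activated endothelium, lay between 93.5 and 174 in untreated tumors with a median of 111, and between 195 and 333 in combination tumors with a median of 208. Every combination tumor lay above every untreated tumor, and the log2 difference was 0.98 (SE 0.14, adjusted p = 5.81e-05, limma). Tek, the gene of their shared receptor, ranged from 36.1 to 113 with a median of 91.7 and, with both agents, from 112 to 198 with a median of 154. The highest untreated and the lowest combination tumor met at 113 and 112, and the other 7 combination tumors lay above. Its log2 difference was 0.92 (SE 0.20, adjusted p = 0.0016, limma). Angpt1, the ligand of vessel quiescence, ranged from 67.4 to 153 with a median of 83.4 without treatment and from 107 to 170 with a median of 140 with both agents. Only 2 of 8 combination tumors lay above the highest untreated tumor, and the log2 difference was 0.61 (SE 0.15, adjusted p = 0.0037, limma). Of the 1022 genes whose combination tumors all lay below the untreated ones, 6.04% of those tested, none was among the 10.

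Apln and Esm1, the genes of tip-cell products, did not pass. Apln ranged from 130 to 373 in untreated and from 165 to 329 in combination tumors, a log2 difference of -0.08 (95% interval -0.46 to 0.30, adjusted p = 0.73, limma). Esm1 was the lowest of the 10 genes, between 12.2 and 33.1 in untreated and between 13.5 and 46.2 in combination tumors. Its difference of 0.32 had a 95% interval from -0.20 to 0.84 (adjusted p = 0.30, limma), wide enough to hold a rise as well as a small fall.

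Marker genes of several cell types differed between the same groups. All 14 blood endothelial markers rose, with a median log2 difference of 0.97, and their summed level was 2361 to 3147 normalized counts in untreated and 4351 to 5955 in combination tumors. Cldn5, Egfl7, Erg and Ecscr had the smallest adjusted p (4.77e-06 each, limma), with log2 differences of 1.48, 1.43, 1.46 and 1.32. All 6 lymphatic endothelial markers rose, among them Prox1 (2.23), Mmrn1 (2.11) and Ccl21a (1.93), and their sum ranged from 841 to 1807 and from 2405 to 5026. Mural markers rose in 7 of 9 cases, among them Rgs5 (0.82) and Notch3 (0.54), with sums of 5286 to 10806 and 7886 to 19374. Des, which did not pass (adjusted p = 0.32, limma), spread most within these sums, from 356 to 5298 and from 379 to 11308. Of 6 tumor epithelial markers, 4 fell, namely the keratin genes Krt18 (-1.46), Krt7 (-1.27), Krt8 (-0.92) and Krt19 (-0.67). Epcam (0.56, adjusted p = 0.31, limma) and Cdh1 (-0.27, adjusted p = 0.62, limma) did not pass. The sum of the 6, mostly Krt8, Krt18 and Krt19, was 16056 to 29267 in untreated and 6882 to 14787 in combination tumors. Macrophage markers rose in 4 of 6 cases (Cd68 by 0.85, Csf1r by 0.60), from sums of 13481 to 24701 to sums of 18160 to 27871, and the leukocyte gene Ptprc rose by 0.59. Of 5 high endothelial venule markers, 2 passed the filter on low values and neither passed the test (Fut7 0.41, Gcnt1 -0.07), and the sum of the 5, mostly Gcnt1, was 859 to 1143 in untreated and 827 to 1224 in combination tumors. Glycam1, a mucin-like gene of these venules, lay under the filter at 0 to 5.03 normalized counts in untreated tumors (mean 2.01), 0 to 7.72 with ADU-S100 (2.08), 0 to 17.3 with anti-LTβR (4.39) and 4.74 to 16.6 in combination tumors (9.80). With no filter it was higher in combination than in untreated tumors (2.05, adjusted p = 0.00098, limma), as it was by DESeq2 on the recovered reads (2.29, adjusted p = 0.00013). Madcam1 averaged 0.37 in untreated and 1.90 in combination tumors and Chst4 1.10 and 1.56, and neither passed with no filter (adjusted p = 0.18 and 0.69, limma). The part played by these cell type markers in the differences of the 10 genes was not tested.

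As a description, each gene was also set against the mean log2 level of the 14 blood endothelial markers in the same tumor. For Kdr this distance was 0.40 ± 0.25 (SD, n = 8) in untreated and 0.40 ± 0.16 (SD, n = 8) in combination tumors. Angpt2 stood at -0.04 ± 0.35 and -0.12 ± 0.27, and Tek at -0.58 ± 0.46 and -0.72 ± 0.18, in the same order of groups. These 3 genes thus kept within 1 SD of their untreated distance from the endothelial markers. Vegfa went from 5.94 ± 0.36 to 4.42 ± 0.35, Flt1 from 5.79 ± 0.38 to 4.54 ± 0.38 and Vegfb from 1.13 ± 0.20 to 0.34 ± 0.22. Angpt1 went from -0.41 ± 0.27 to -0.86 ± 0.17 and Pgf from 0.32 ± 0.67 to -0.92 ± 0.53. Apln went from 0.94 ± 0.53 to -0.20 ± 0.37 and Esm1 from -2.61 ± 0.48 to -3.35 ± 0.59. The endothelial mean itself went from 6.91 ± 0.13 to 7.97 ± 0.18, so that every gene that rose by less than the markers has a lower distance by construction, Angpt1 and Vegfb included.

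**Figure D2:**
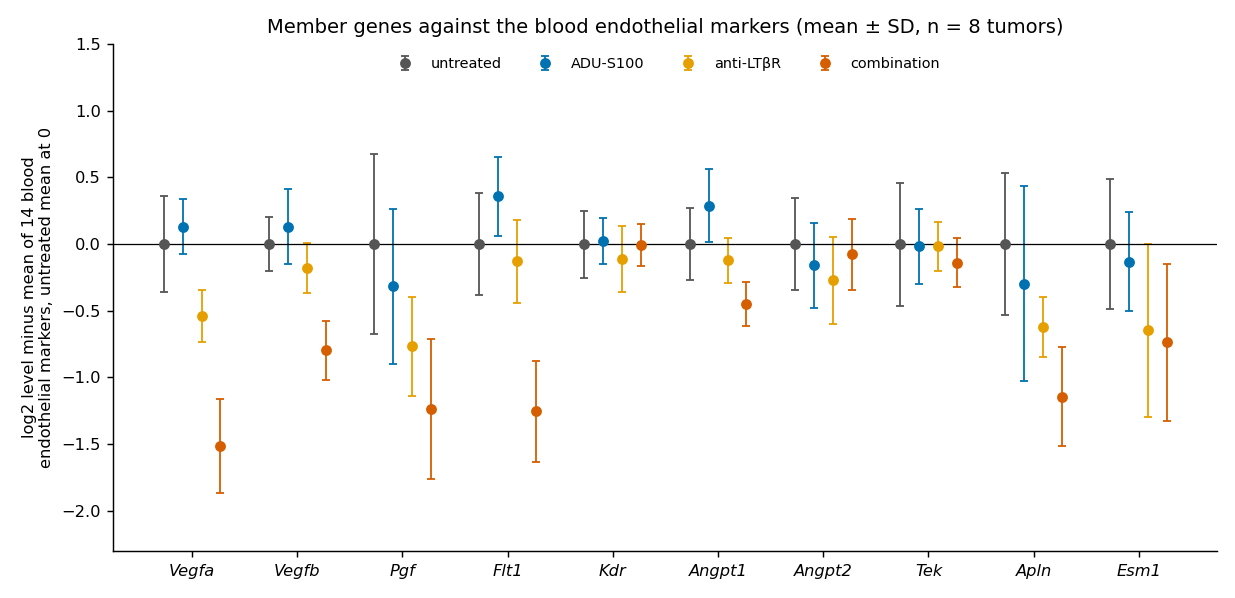
Log2(normalized count + 1) of each gene minus the mean of 14 blood endothelial markers in the same tumor, shown as the mean ± SD of 8 tumors per group with the untreated mean set to 0. In combination tumors Kdr, Tek and Angpt2 lie close to 0, with Angpt2 lower in anti-LTβR tumors (-0.31 against -0.04 in untreated ones before centring), whereas the combination means of Vegfa (4.42 against 5.94 before centring) and Flt1 (4.54 against 5.79) lie well below.

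The second question was how far either agent alone moved these genes. With anti-LTβR alone, none of the 10 changed, while 7.21% of 16691 genes rose and 8.10% fell. Vegfb came closest, between 263 and 316 normalized counts with a median of 305, a log2 difference of 0.17 (SE 0.06, adjusted p = 0.084, limma), and it passed when libraries were scaled by their totals (0.18, adjusted p = 0.041). Vegfa lay between 5967 and 7390 with a median of 6362, a difference of -0.19 (95% interval -0.38 to -0.01, adjusted p = 0.14, limma). For Kdr (124 to 236, median 184) the difference was 0.24 (95% interval -0.06 to 0.53, adjusted p = 0.24, limma) and for Tek (75.4 to 125, median 100) it was 0.33 (95% interval -0.09 to 0.75, adjusted p = 0.25, limma). Both intervals ran from a small fall to a rise, so that neither a change nor its absence was shown. Angpt2 lay between 85.9 and 186 with a median of 123, and its difference was 0.08 (adjusted p = 0.76, limma). In the same comparison 5 of 14 blood endothelial and 3 of 6 lymphatic markers rose, with median differences of 0.39 and 0.89, and 4 of 6 epithelial markers fell.

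With ADU-S100 alone, 14 days after its single dose, none of the 10 changed either, and no gene of 16613 did, in either direction (0.00% up and 0.00% down, limma). At an unadjusted p under 0.05 there were 2408 genes, or 14.5%, and DESeq2 on recovered reads called 16 genes up and 7 down. Flt1, between 6340 and 9944 with a median of 8638, had the smallest p of the 10 genes, with a log2 difference of 0.31 (95% interval 0.01 to 0.61, adjusted p = 0.33, limma). Kdr lay between 124 and 203 with a median of 145, a difference of -0.03 (95% interval -0.32 to 0.27). Angpt2 lay between 66.9 and 147 with a median of 98.8, a difference of -0.21 (95% interval -0.54 to 0.12). For both, an increase of the size seen with the 2 agents lay outside the interval. None of the marker lists held a changed gene in this comparison.

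Set against each single agent, the combination again stood apart. Against anti-LTβR alone, 4 of the 10 genes rose and 2 fell, where 11.3% of 16932 genes rose and 15.3% fell. Against ADU-S100 alone, 4 rose and 2 fell as well, where the background was 20.2% and 26.0% of 16811 genes. In both, Kdr, Angpt2, Tek and Angpt1 were the genes that rose and Flt1 and Vegfa those that fell; the comparisons share the combination tumors.

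Kdr was 0.82 higher than with anti-LTβR alone (SE 0.14, adjusted p = 0.0013, limma) and 1.08 higher than with ADU-S100 alone (SE 0.14, adjusted p = 3.30e-05, limma), all on the log2 scale. Angpt2 was 0.91 and 1.19 higher (SE 0.16 each, adjusted p = 0.0014 and 3.47e-05, limma). Of these comparisons with single agents, both genes passed 2-fold in the one with ADU-S100, a limit that 5.46% of genes passed upward there. Tek was 0.59 and 0.99 higher (SE 0.13 and 0.16, adjusted p = 0.0040 and 0.00015, limma). Kdr, Angpt2 and Tek of the combination tumors did not overlap with the ADU-S100 tumors, which 5.00% of genes showed upward and 6.96%, with none of the 10, downward. Angpt1 rose by 0.39 and 0.37 (adjusted p = 0.011 and 0.016, limma), and both calls were lost without the 7 shallower libraries (adjusted p = 0.13 and 0.075).

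Flt1, whose difference from untreated tumors had not passed, was 0.41 lower than with anti-LTβR alone (SE 0.10, adjusted p = 0.0056, limma) and 0.50 lower than with ADU-S100 alone (SE 0.11, adjusted p = 0.0013, limma). The anti-LTβR tumors lay between 6446 and 9592 with a median of 7666, and 5 of 8 combination tumors lay below all of them. Vegfa fell by 0.27 against anti-LTβR (SE 0.08, adjusted p = 0.027, limma) and by 0.54 against ADU-S100 (SE 0.09, adjusted p = 0.00012, limma). The first of these calls was lost in 5 of 12 alternatives, with adjusted p up to 0.23. ADU-S100 tumors, between 6928 and 8829 with a median of 8002, lay above 7 of 8 combination tumors. Esm1 was 0.51 higher than with ADU-S100 alone (95% interval 0.06 to 0.95, adjusted p = 0.058, limma) and passed in 6 of 12 alternatives, with adjusted p from 0.028 to 0.10.

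The single agents also differed in 1 of the 10 genes. Vegfa was 0.27 lower with anti-LTβR than with ADU-S100 (SE 0.06, adjusted p = 0.012, limma), 6 of 8 anti-LTβR tumors lying below every ADU-S100 tumor. Here 3.38% of 16649 genes rose and 3.04% fell. The call was lost when all 4 groups shared 1 estimate of spread (adjusted p = 0.085).

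**Figure D3:**
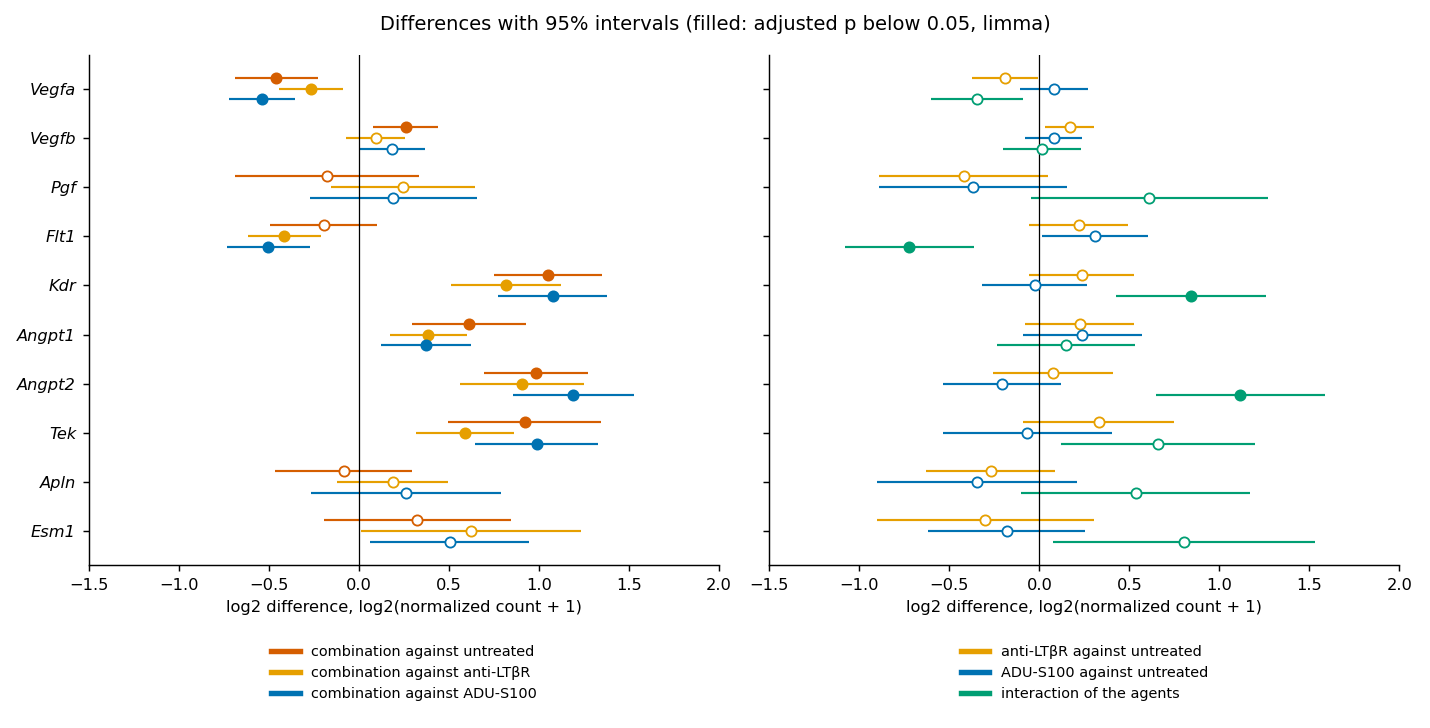
Log2 differences of the 10 genes with 95% intervals from limma; the left panel sets combination tumors against each other group, and the right panel shows each agent alone against untreated tumors and the interaction of the agents. Filled points passed at an adjusted p below 0.05; Kdr, Angpt2, Tek and Angpt1 pass above 0 in all 3 left comparisons, and in the right panel only the interactions of Angpt2, Kdr and Flt1 pass.

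The interaction asked whether ADU-S100 had a different effect in tumors that also received anti-LTβR. It was positive for Angpt2 (1.12, SE 0.23, adjusted p = 0.0016, limma) and Kdr (0.84, SE 0.20, adjusted p = 0.0049, limma) and negative for Flt1 (-0.72, SE 0.18, adjusted p = 0.0051, limma). An interaction in either direction was called for these 3 of 10 genes and for 18.4% of the 17649 tested. Thus Flt1 had a higher mean with ADU-S100 alone (8370 against 6863) and a lower one when ADU-S100 was added to anti-LTβR (5902 against 7828), whereas Kdr stood at 158 against 161 and at 336 against 190. Vegfa (-0.35, adjusted p = 0.051) and Tek (0.66, adjusted p = 0.078) did not pass in limma, and both passed in some alternatives. Without the 7 shallower libraries the Flt1 value was -0.59 (adjusted p = 0.056). The share of positive calls among all genes called was 39.9% here and 51.3% for recovered reads in edgeR with RLE factors, and that of higher calls went from 42.6% to 54.5% with TMM for the combination against anti-LTβR and from 52.7% to 64.6% with library totals for anti-LTβR against ADU-S100.

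Ordered by group mean, Kdr stood at 158 with ADU-S100, 161 without treatment, 190 with anti-LTβR and 336 with both agents. Only the last step passed (adjusted p = 0.0013, limma). Angpt2 had the same order, at 103, 118, 126 and 235, and again only the last step passed (adjusted p = 0.0014, limma). Tek, too, followed it, at 78.5, 84.0, 102 and 154, with only the last step passing (adjusted p = 0.0040, limma). Vegfa ran in the reverse order, at 7846, 7483, 6495 and 5446, and here also the step from anti-LTβR to both agents was the only one between neighbours to pass. Flt1 had another order, with ADU-S100 the highest at 8370, then anti-LTβR at 7828, untreated at 6863 and combination at 5902, and none of the 3 steps between neighbours passed.

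Other genes of the pathway were taken from lists. These lists were chosen with earlier results of these data known, so their counts are a description. Of 5 further VEGF family genes, 3 rose and 1 fell in combination against untreated tumors, where 19.6% of all genes rose and 23.6% fell. Flt4, the VEGFR3 gene of lymphatic endothelium, rose by 2.07 on the log2 scale, its ligand gene Vegfc by 0.51, and the co-receptor gene Nrp1 fell (-0.54). Of 6 further angiopoietin-TIE genes, 3 rose: Tie1, the partner receptor of TIE2 (1.26), the ligand gene Angpt4 (1.25) and the phosphatase gene Ptprb (0.66). The apelin receptor gene Aplnr rose by 0.92 while its ligand gene Apln did not pass. Among 11 Notch and tip-cell genes, 10 were tested, of which 6 rose and 1 fell, with Plxnd1 (0.95) and Pdgfb (0.58) carrying the smallest adjusted p. The gene that fell was Jag1 (-0.61), a Notch ligand. Of 12 hypoxia response genes, 11 were tested, 1 rose (Egln3, a prolyl hydroxylase, 0.43) and 4 fell, beside 23.6% of all genes falling: the glucose transporter gene Slc2a1 (-0.37), the glycolysis genes Pgk1 (-0.34) and Ldha (-0.21), and P4ha1 (-0.13). Their median log2 difference was -0.13, and their summed level was 42432 to 55019 normalized counts in untreated and 35946 to 48780 in combination tumors. The count that fell was 2 with the replicate block, 2 with no filter on low values and 1 without the shallower libraries. Vegfa is itself a hypoxia response gene, and the part of these genes in its fall was not tested. With anti-LTβR alone against untreated tumors, 3 of the 5 VEGF family genes rose, beside 7.21% of all genes. So did 1 of the 6 angiopoietin-TIE and 3 of the 10 Notch and tip-cell genes, and none of these lists held a fall. Flt4 (0.99) and Tie1 (0.88) were higher in combination than in anti-LTβR tumors, whereas Vegfc (-0.07), Plxnd1 (0.18) and Pdgfb (0.24) did not pass there.

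Whether the genes varied together from tumor to tumor was examined with 8 relations between deviations from the group means over all 32 tumors, which takes out the differences between treatments. Kdr followed the mean of the blood endothelial markers (Pearson r = 0.72, permutation p = 1e-05, the smallest that 100000 permutations can give, adjusted p = 8e-05; Spearman rho = 0.71, permutation p = 2e-05, adjusted p = 0.00016). Within groups r lay between 0.47 in untreated and 0.95 in combination tumors, and without the 2 tumors farthest on the Kdr axis it was 0.70. Kdr also followed Tek (r = 0.57, permutation p = 0.00075, adjusted p = 0.0030; rho = 0.52, permutation p = 0.0038, adjusted p = 0.015), with r between 0.48 and 0.87 within groups and 0.51 without the 2 farthest tumors. The 2 endothelial receptor genes thus had a positive r within every treatment.

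Vegfa followed the mean of the hypoxia list by Pearson's r (0.51, permutation p = 0.0069, adjusted p = 0.018) and not by Spearman's rho (0.39, permutation p = 0.040, adjusted p = 0.11). Without the 2 farthest tumors r was 0.36 (permutation p = 0.061) and no longer passed. Within groups r was 0.83 with both agents, 0.57 without treatment, 0.50 with anti-LTβR alone and -0.16 with ADU-S100 alone. The list mean weighs each gene equally on the log2 scale, and Car12 varied over the widest fold range of them. Its level ran from 14.8 to 306 normalized counts in untreated and from 11.5 to 369 in combination tumors. The part of Car12 in the relation of Vegfa with the list was not tested. No relation was found for Kdr with Flt1 (r = 0.02, adjusted p = 0.98; rho = -0.03, adjusted p = 0.87, permutation test), whose within-group r ran from 0.58 in untreated to -0.61 in combination tumors. The same held for Angpt2 with its receptor gene Tek (r = 0.01, adjusted p = 0.98; rho = -0.08, adjusted p = 0.76, permutation test). Vegfa did not pass with Esm1 (r = -0.19; rho = -0.32), Apln (r = 0.25; rho = 0.24) or Kdr (r = -0.14; rho = -0.22), the adjusted p lying between 0.20 and 0.62 in the permutation test.

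**Figure D4:**
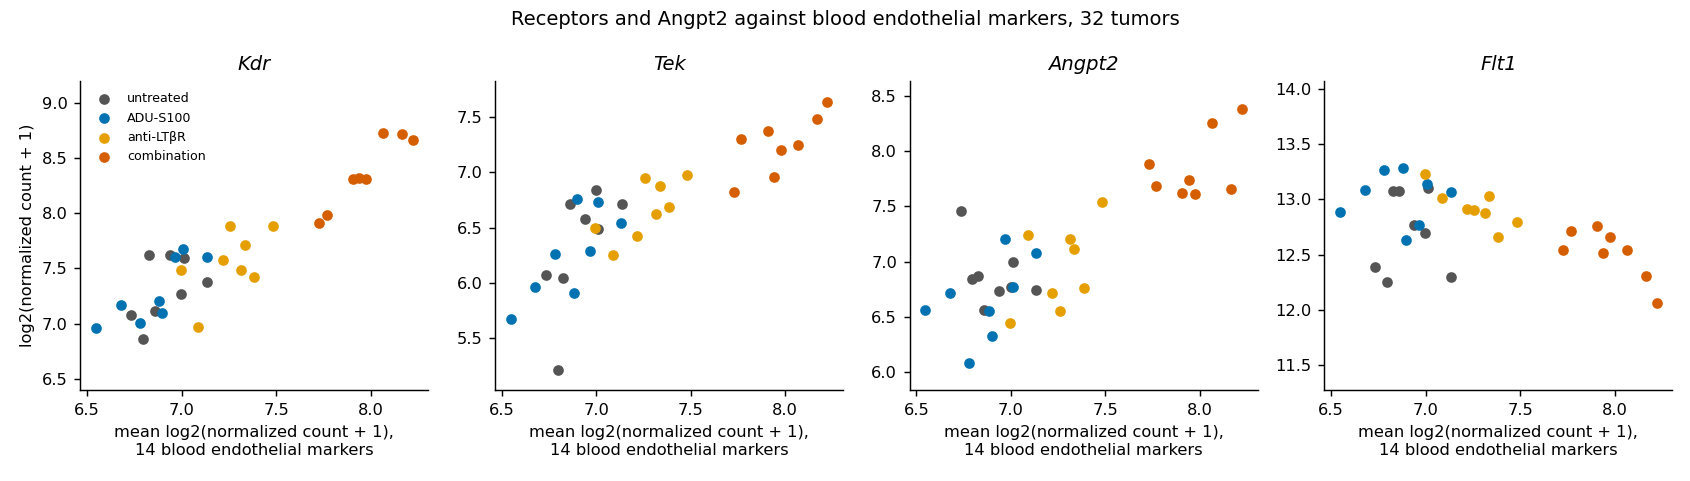
Log2(normalized count + 1) of Kdr, Tek, Angpt2 and Flt1 (vertical axes, of equal span) against the mean log2(normalized count + 1) of 14 blood endothelial markers in 32 tumors, colored by group. Kdr rises with the markers within each group (r of deviations 0.72), while the combination tumors, farthest to the right, are not the highest for Flt1.

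As a description over all 32 tumors, treatments included, the genes with the pattern most like Kdr were Impact (r = 0.93), Ddr2 (r = 0.93) and Ccdc8 (r = 0.92). Those most like Angpt2 were Gja4, a gap junction gene of arterial endothelium (r = 0.86), Trp53i11 (r = 0.85) and Adgrg3 (r = 0.85). Vegfa was most like Smtn, Kansl3 and Itga6 (r = 0.91 each), of which Itga6, an integrin gene, went from 13609 normalized counts in untreated to 7235 in combination tumors. For Esm1, the lowest of the 10, no gene exceeded r = 0.63, the value of Urod, followed by Nmnat3 (0.60) and Mgat1 (0.59). These values share libraries and scaling, and carry no test.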

How the data were processed

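Total tumor RNA was sequenced by the authors as paired-end poly(A) libraries, 1 per tumor. The authors deposited a normalized signal for 32 libraries and 27525 genes, in which each library's gene-wise reads were scaled by a factor of its own, and a like signal for 52 libraries and 27894 genes, whose low values allow whole reads to be recovered (100% whole within 0.1 of a read). Their methods and processing notes name Cutadapt, FastQC, HISAT2, StringTie, STAR in Partek and DESeq2, and mm39. The signal of the 32 libraries carries Partek in its name. Which tools made that of the 52 libraries is not given in the sources used here, and neither is the strand setting of the counting. Another file holds the authors' enrichment results and was not used. The 20 libraries of another experiment entered no comparison, since the labels of 15 contradict each other.

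Values were tested as log2(value + 1) with limma 3.58.1 (trend; R 4.3.3) on the 16 libraries of each comparison, after edgeR's filterByExpr with a minimum of 10, with Benjamini-Hochberg adjustment over all genes tested. The interaction used all 32 libraries. Alternatives were edgeR 4.0.16 (quasi-likelihood; TMM, RLE or library totals) and DESeq2 1.42.0 on recovered reads, libraries rescaled to 1 total, other filters and pseudocounts of 0.5 and 0.1, 1 fit of all groups, only libraries above 14000000 reads, a replicate block, and a 2-fold limit. In data simulated from the combination and untreated tumors, limma recovered 200 of 200 genes changed by 1.5 on the log2 scale, with 4 false calls among 15824 genes. That change was larger than any difference of the 10 genes (at most 1.19), so the simulation does not show how well smaller changes are found. Far fewer genes were changed in it than were called between these groups. Correlations used 100000 two-sided permutations within groups (numpy 2.4.6). Gene positions and exon lengths came from GENCODE vM21 by gene ID. The members and gene lists were chosen with earlier results of these data known; the text names all members, from each list the 2 genes with the smallest adjusted p (ties included) against untreated tumors and any gene needed to read it, and the 3 genes most like Vegfa, Kdr, Angpt2 and Esm1. Ca9 of the hypoxia list had no value and was not analysed here. P-values measure the spread between tumors; whether each tumor came from a mouse of its own is not given in the sources used here. Normalized values of low genes, Esm1 the lowest among the 10, rest on few reads.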

Additional observations from a re-analysis of the deposited data

Results flagged for a closer look

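In 3 of 40 sets of 8 tumors (10 genes in 4 groups) 1 tumor stood far from the rest by Dixon's test, where chance gives about 1 in 20. The highest untreated tumor reached 153 normalized counts for Angpt1 and, in another tumor, 174 for Angpt2. Among the ADU-S100 tumors the highest Angpt1 value was 153.

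The effect of ADU-S100 differed with and without anti-LTβR for 3 genes by the interaction test in limma. The difference of effects was 1.12 for Angpt2 and 0.84 for Kdr on the log2 scale, and -0.72 for Flt1.

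In the 20 libraries of the other experiment, which entered no comparison, 9 of the 10 genes had more than 3 recovered reads in every library.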

How the results depend on the processing

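Counts of changed genes among the 10 moved by over 1.5 times in these cases. With a 2-fold limit the counts were 1 of 6 for combination against untreated, 0 of 6 against anti-LTβR, 2 of 6 against ADU-S100, 0 of 1 for anti-LTβR against ADU-S100 and 1 of 3 for the interaction. For anti-LTβR against untreated the count was 1 in place of 0 with library totals in edgeR and with libraries rescaled to 1 total (Vegfb in both). For anti-LTβR against ADU-S100 it was 0 in place of 1 with all groups in 1 fit.

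Of 846 values of single genes and relations under alternatives, 807 kept their direction and their side of the threshold, 14 passed only in the alternative, 11 passed only in the main test and 14 changed sign, none of the last being a call. In anti-LTβR against ADU-S100 the sign-changed values were, for Apln, -0.040 (TMM), -0.043 (RLE), -0.032 (library totals) and -0.048 (DESeq2). For Esm1 they were 0.015, 0.011, 0.022 and 0.0083 in the same order, and 0.16 with only libraries above 14000000 reads. For Angpt1 they were 0.0019 (rescaled) and 0.050 and for Pgf 0.059 (the last 2 with only those libraries). The Vegfb interaction was -0.10 with those libraries, and r of Angpt2 with Tek was -0.0056 without the 2 farthest tumors. The cause was not tested.

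With the replicate number as a block the counts were 6, 0, 0, 6, 6 and 1 for the pairwise comparisons and 3 for the interaction, and no call on the 10 genes changed. No label ties the numbers to a shared animal, litter or day. Between groups, 2 to 6 of 8 same-numbered pairs had a correlation of deviations above 0.1 (means -0.09 to 0.19), and 0 to 3 of 8 tumors correlated best with their own number, so the tumors were treated as sharing only a number.

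Esm1 rested on the fewest reads, at 6.53 to 46.2 normalized counts per tumor. Without the 7 shallower libraries fewer tumors remained, and Vegfb against untreated, Vegfa and Angpt1 against anti-LTβR, Angpt1 against ADU-S100 and the Flt1 interaction no longer passed.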

Other observations

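Among all 45 pairs of the 10 genes, with deviations from the group means over 32 tumors and adjustment over the 45, 3 pairs passed by Pearson's r. Of these, Kdr with Tek, described above, passed by r (permutation test, adjusted p = 0.017) and not by rho (adjusted p = 0.057). The other 2 were chosen after their values were seen. Pgf, a ligand gene of VEGFR1, varied with Apln, the apelin gene (r = 0.72, permutation p = 1e-05, the smallest that could be reached, adjusted p = 0.00045; rho = 0.72, permutation p = 3e-05, adjusted p = 0.0013). Within groups r lay between 0.66 and 0.82, and without the 2 farthest tumors it was 0.66. Neither gene had changed in any comparison of groups.

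Vegfa and Vegfb, genes of 2 ligands of VEGFR1, varied in opposite directions (r = -0.59, permutation p = 0.0022, adjusted p = 0.034; rho = -0.59, permutation p = 0.0012, adjusted p = 0.027). In ADU-S100, anti-LTβR and combination tumors r was -0.95, -0.91 and -0.77, and in untreated tumors it was -0.11. Whether the groups differ in this was not tested.

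In the 15 libraries of the other experiment whose labels contradict each other, Vegfa lay between 1867 and 5932 with a median of 3694 on the scale of the larger table, Kdr between 82.9 and 543 with a median of 153, and Angpt2 between 104 and 380 with a median of 221. In 5 libraries labelled as combination there, Vegfa lay between 1616 and 5240 with a median of 3186, Kdr between 15.1 and 607 with a median of 179 and Angpt2 between 166 and 546 with a median of 279. The library numbered 3 held 8716257 reads, against 18028313 to 18789130 in the other 4, and had the lowest Kdr, Angpt1 and Tek (15.1 each) and Angpt2 and the highest Vegfb (1617) and Pgf (1734). Its values of 15.1 rest on very few reads. In the other 4 libraries Kdr lay between 102 and 607 and Angpt2 between 193 and 546.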
